A study of Mus musculus with 7 samples.

Results

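miR-21a is a mouse microRNA (miRNA) whose hairpin precursor yields a mature strand from each side, mmu-miR-21a-5p and mmu-miR-21a-3p, written below without the species prefix. Both were taken by name from the array, where they were 2 of 1881 miRNA names. Signal was measured on 7 one-colour Agilent arrays in CD4+ T cells, which help other immune cells respond to an antigen. The cells came from draining lymph nodes and were selected with magnetic beads through CD4. The EAM group (4 arrays) came from a mouse model of myocarditis and carries a day 6 label, counted from induction. The LAD group (3 arrays) came from a mouse model of myocardial infarction and carries a day 3 label. In the text on the whole series the 2 days are swapped. Strain, age, sex and the way each model was induced were not given in the sources used here. No cells of healthy mice were analysed here, so every comparison sets one model against the other, with differences as EAM minus LAD. Model, day and slide column changed together and cannot be told apart. Nothing says whether an array held 1 mouse or a pool, so p-values measure the spread between these samples, which may be technical.

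A miRNA guides an Argonaute protein to messenger RNAs that pair with its seed, a short stretch near its 5′ end, and lowers their translation and stability. miR-21 is one of the miRNAs that T cells induce when they are activated. Its known targets include Pdcd4, a brake on translation, and the Sprouty inhibitors of Ras and MAP kinase signalling. The 5p arm is the guide strand, and the 3p arm is the passenger strand, most of which is degraded after the duplex is opened.

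The mature strands of both arms and of the 2 other miR-21 names with an entry in the sequence table are shown, since the array must tell these strands apart. They are given 5′ to 3′ from RefSeq (GRCm38.p6), with the seed (bases 2 to 8) in capitals.
miR-21a-5p: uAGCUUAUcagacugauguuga
miR-21c: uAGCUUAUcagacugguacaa
miR-21b: uAGUUUAUcagacugauauuucc
miR-21a-3p: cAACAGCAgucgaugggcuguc
miR-21a-5p lies at chr11:86584120-86584141 and miR-21a-3p at chr11:86584082-86584103, both on the minus strand of GRCm38.p6. Their gene, Mir21a (chr11:86584067-86584158), lies within the span of Vmp1 (chr11:86583858-86683836), 209 bases from the low-coordinate end of that gene. Vmp1 encodes a membrane protein needed for autophagy, and whether Mir21a falls in one of its exons or introns was not analysed here. Of the 1608 array names found in the sequence table, only miR-21c has the seed of miR-21a-5p, and none has that of miR-21a-3p. Counted from 1 at the 5′ end of miR-21a-5p, with its base first, miR-21c carries A16G, G18A, U19C, U20A and G21A. By the same count miR-21b carries C4U, G18A, G21U and A22C, the first of which lies in the seed.

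The array read miR-21a-5p with 2 probes, complementary to its bases 3 to 22 and 4 to 22. They are shown because their length sets how much of the seed they cover. Capitals mark the bases that pair with the seed.
longer miR-21a-5p probe: tcaacatcagtctgATAAGC
shorter miR-21a-5p probe: tcaacatcagtctgATAAG
miR-21a-3p was read with 4 probes that differ by 1 base each, of which the longest and the shortest are shown in the same way.
longest miR-21a-3p probe: gacagcccatcgacT
shortest miR-21a-3p probe: gacagcccatcg
The longer miR-21a-5p probe covered 6 of the 7 seed bases, and the longest miR-21a-3p probe covered 1. A probe's brightness depends on its own affinity, so a rank or an order of signals of different miRNAs is one of signal and not of abundance, and only its change between arrays is read.

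miR-21a-5p was bright in CD4+ T cells of both models. All 210 of its spots (30 on each array) were well above background and 0 were saturated. The median spot intensity of the longer probe, with background included, was 12532.5, 12981, 11555 and 14519 units in the EAM arrays, against 2813, 2091 and 722 units in the LAD arrays. The shorter probe read 6349, 6371, 6050 and 7421 units in the EAM arrays and 1375, 945 and 353 units in the LAD arrays. The local background was 24.25 to 27 units on every array. The unscaled values of the EAM arrays thus lay within a narrow band above all 3 LAD arrays, and LAD array 3 was the dimmest on both probes.

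The unscaled gap cannot be read by itself, because the LAD arrays were dimmer for most miRNAs. The EAM arrays detected 445 to 471 names and the LAD arrays 311 to 380, where detected is the scanner software's own call. Among the other 250 names detected on all 7 arrays, the median unscaled difference was 1.28 on the log2 scale, with a range of -1.24 to 3.96. For miR-21a-5p the unscaled log2 signal was 13.12, 13.15, 13.02 and 13.34 in EAM and 10.92, 10.43 and 8.88 in LAD. The unscaled difference of 3.08, or 8.48-fold, was larger than that of 96.0% of these names. It passed the test on unscaled values (adjusted p = 0.00232, limma with Benjamini-Hochberg adjustment).

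After quantile normalization, which gives every array the same distribution of signal, most of the gap was gone. The normalized log2 signal of miR-21a-5p was 12.62, 12.51, 12.60 and 12.50 in EAM (12.56 ± 0.06, SD, n = 4). It was 13.04, 10.96 and 11.94 in LAD (11.98 ± 1.04, SD, n = 3). LAD array 1 lay above every EAM array, and LAD arrays 2 and 3 lay below every EAM array, so the groups overlapped. The difference was 0.57 on the log2 scale, or 1.49-fold, with a standard error of 0.42 and a 95% confidence interval of -0.40 to 1.55. It did not pass the test (unadjusted p = 0.211, adjusted p = 0.248, limma with Benjamini-Hochberg adjustment), so no difference larger than the spread of the LAD arrays was found on this scale. The interval holds a fold of 1 as well as a difference of more than 1 log2 unit.

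**Figure D1:**
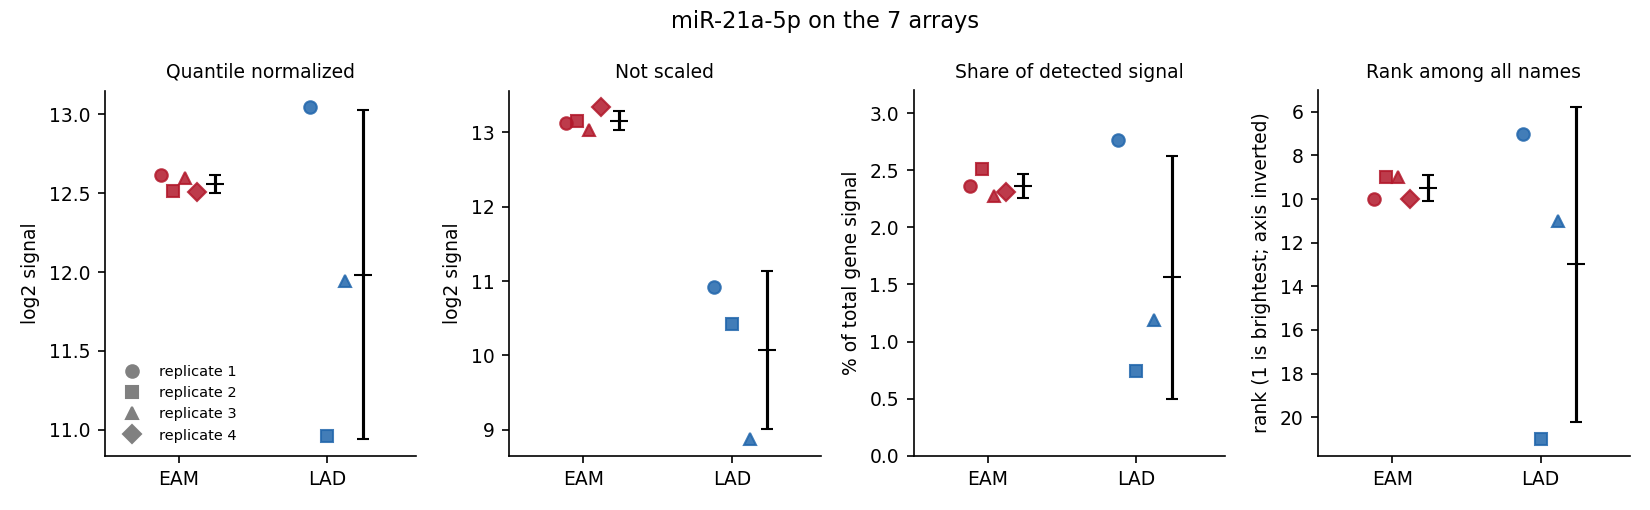
miR-21a-5p on each array by 4 measures: quantile-normalized log2 signal, unscaled log2 signal, percent of the array's total gene signal, and rank of brightness (1 is the brightest name). Points are arrays (EAM left, LAD right, marker shape gives the replicate number) and bars are the mean ± SD; the 4 EAM arrays sit close together in every panel, while LAD array 1 reaches 13.04 and LAD array 2 falls to 10.96 on the quantile scale.

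A miRNA was tested where all arrays of EAM or all arrays of LAD detected it, which held for 423. Of these, 253 (59.8%) passed an adjusted p under 0.05, with 153 (36.2%) higher in EAM and 100 (23.6%) higher in LAD. A total of 238 (56.3%) had groups that did not overlap. miR-21a-5p was thus among the minority of tested miRNAs without a call in either direction. Its difference was 0.26 log2 units above the median of all tested miRNAs (0.31), and 29.8% of them had a larger one. That median moved with the scaling, to 1.17 without scaling, 0.69 with median centring and -0.78 with the 75th percentile of the detected probes. The split of the calls moved with it: without scaling 299 calls were toward EAM and 2 toward LAD, with median centring 263 and 55, scaled to the 75th percentile of all probes 247 and 77, or of the detected probes 31 and 250. Without scaling, miR-21a-5p stood 1.92 above the median of all tested miRNAs, and 2.36% of them had a larger difference. The median and the split also moved with the filter. Over the other 250 names detected on every array, the quantile median was -0.094, and 79.2% of them had a smaller difference than miR-21a-5p. With only names detected on every array tested, 135 of 251 passed, 52 of them higher in EAM and 83 higher in LAD. The limma fit takes 1 variance for both groups, and an unequal-variance test on each miRNA called 0 of the 423 (120 had an unadjusted p under 0.05).

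The call on miR-21a-5p turned on the scaling and on single LAD arrays. Scaling to the 75th percentile of the detected probes gave a difference of 1.13 (adjusted p = 0.0295, limma), scaling to that of all probes gave 2.52 (adjusted p = 0.00245) and median centring gave 2.60 (adjusted p = 0.00165). In the authors' deposited table, which was close to quantile-normalized signal without background correction, the arm had 12.63, 12.56, 12.66 and 12.57 in EAM against 12.63, 10.86 and 11.62 in LAD. The limma fit to those values gave a difference of 0.90 (adjusted p = 0.0682). Without LAD array 1 the quantile difference was 1.10 (adjusted p = 0.0291, limma), and without LAD array 2 it was 0.063 (adjusted p = 0.834). With array weights, which let limma count variable arrays for less, the sign turned, at -0.33 (adjusted p = 0.141).

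**Figure D2:**
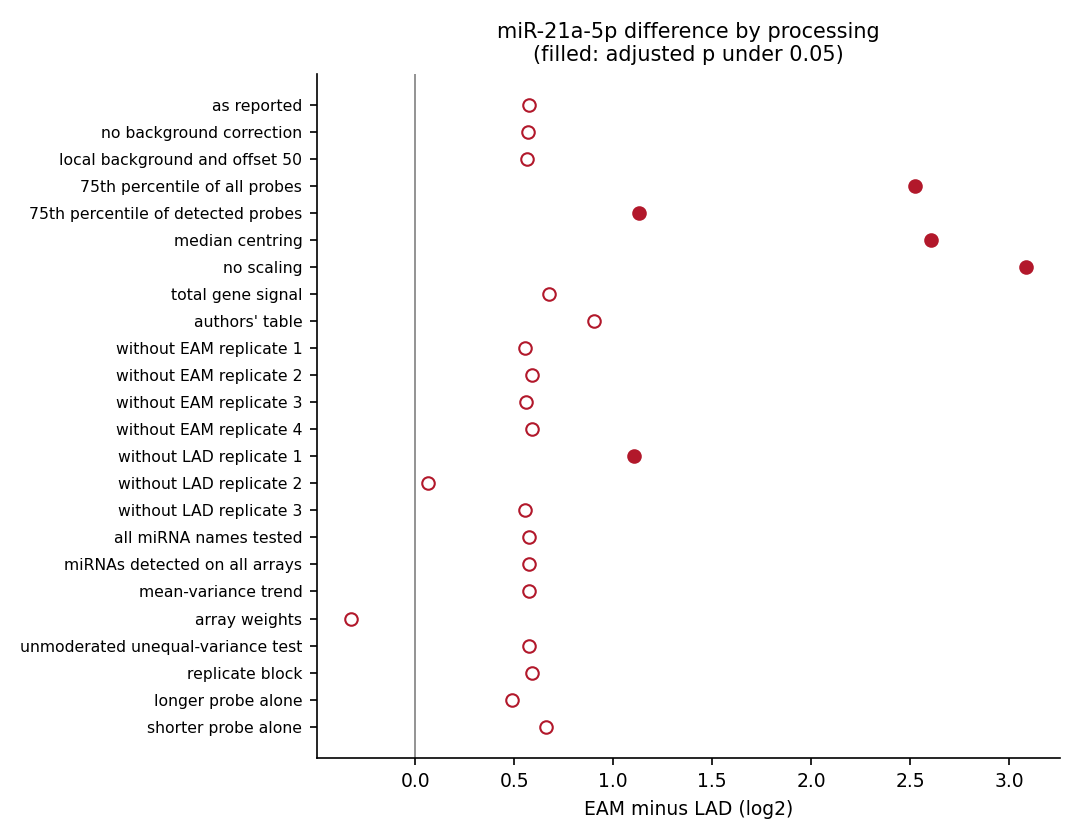
Difference of miR-21a-5p in log2 units (EAM minus LAD, horizontal axis) under each way of processing and without each array (vertical axis); filled points have an adjusted p under 0.05. The quantile value is 0.57, scaling to all probes, median centring and no scaling reach 2.52 to 3.08, and the values without LAD array 1 and without LAD array 2 are 1.10 and 0.063.

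Relative to the EAM mean, the quantile value of miR-21a-5p deviated by 0.49 on LAD array 1, -1.59 on LAD array 2 and -0.61 on LAD array 3. Among the other 250 names detected on all arrays, whose median deviation quantile normalization holds near 0, the place of miR-21a-5p differed between the 3 LAD arrays. On LAD array 2 only 3.2% of these names deviated further down than miR-21a-5p, while on LAD array 1 67.6% lay lower than it did and on LAD array 3 32.4% did. Only miR-23a-3p, miR-24-3p and miR-342-3p (1.2% of the 250) shared its order, with LAD array 1 above every EAM array and LAD arrays 2 and 3 below. These were named after their values were seen.

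By rank of brightness within each array, where 1 is the brightest name, miR-21a-5p stood at 10, 9, 9 and 10 in EAM and at 7, 21 and 11 in LAD. It was thus among the 21 brightest names on every array. The mean rank was 9.5 ± 0.58 in EAM (SD, n = 4) and 13 ± 7.21 in LAD (SD, n = 3; two-sided exact permutation p = 0.629). With 35 splits of the arrays, the smallest p that this test can give is 0.0571. Without LAD array 2 the difference in mean rank of -3.5 became 0.5. On all 7 arrays 4 names were brighter: miR-142a-3p and miR-142a-5p, both from the leukocyte miRNA miR-142a, and miR-3963 and miR-6366. On LAD array 2, 12 names were brighter than miR-21a-5p that were brighter on no EAM array, against 2 such names on LAD array 3 and 0 on LAD array 1.

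As a share of the summed total gene signal of the names detected on an array, miR-21a-5p took 2.36%, 2.52%, 2.28% and 2.31% in EAM. It took 2.77%, 0.741% and 1.19% in LAD. This share scales each array to its own sum, over 445 to 471 names in EAM and 311 to 380 in LAD. The order was that of the quantile values, with LAD array 1 above and LAD arrays 2 and 3 below all EAM arrays. The mean share was 2.36% ± 0.11 in EAM (SD, n = 4) and 1.56% ± 1.06 in LAD (SD, n = 3). The difference of 0.80 percentage points was not larger than the spread (two-sided exact permutation p = 0.286), and leaving out LAD array 2 or LAD array 1 gave 0.389 or 1.40.

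The spots behind each value lay close together. The spots of a probe varied by 1.88% to 6.30% (coefficient of variation) within an array. The longer probe read 1.08, 1.02, 0.90 and 0.94 log2 units above the shorter one in EAM and 0.97, 1.24 and 1.26 in LAD. Taken alone, the longer and the shorter probe gave quantile differences of 0.49 (adjusted p = 0.289, limma) and 0.66 (adjusted p = 0.219). The SD among the LAD arrays was 0.97 for the longer and 1.11 for the shorter probe, on the log2 scale, so both probes carried the LAD spread.

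Set against other T cell miRNAs on the same array, miR-21a-5p did not stay level with all of them. miR-155-5p is an activation-induced miRNA needed for helper T cell responses, and miR-146a-5p is a brake on NF-κB signalling. miR-150-5p is high in mature resting lymphocytes, miR-142a-3p is made by all leukocytes, and miR-223-3p marks myeloid cells. The 5 comparisons form 1 family, and none can pass the threshold in this design. By their own quantile values miR-150-5p, miR-146a-5p and miR-223-3p did not overlap between the groups, as held for 56.3% of all tested miRNAs. A change relative to them therefore also holds their own difference. How many other names would separate from miR-21a-5p in this way was not analysed.

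The quantile log2 signal of miR-21a-5p exceeded that of miR-150-5p by 0.20, 0.06, 0.09 and -0.02 in EAM and by 0.85, 1.15 and 0.76 in LAD. All 3 LAD arrays lay above all 4 EAM arrays, a change of -0.84 (two-sided exact permutation p = 0.0571, 0.0952 adjusted over the 5). This change kept its sign in each alternative that was run, at -0.92 to -0.65. The excess over miR-146a-5p was 3.50, 3.31, 3.33 and 3.26 in EAM and 4.30, 4.56 and 5.11 in LAD. These groups did not overlap either, with a change of -1.31 (exact permutation p = 0.0571, adjusted 0.0952), but they did in the unscaled values, where the change was -0.36 (exact permutation p = 0.286).

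Over miR-223-3p the excess of miR-21a-5p was 6.19, 6.03, 5.87 and 5.79 in EAM and 3.86, 3.18 and 4.24 in LAD. Here all EAM arrays lay above all LAD arrays, with a change of 2.21 (exact permutation p = 0.0571, adjusted 0.0952) and a range of 1.85 to 3.10 over the alternatives. Over miR-155-5p the excess was 3.03, 2.85, 2.97 and 2.88 in EAM and 3.62, 2.79 and 4.02 in LAD, with overlap and a change of -0.54 (exact permutation p = 0.286, adjusted 0.357). In unscaled values the change relative to miR-155-5p had the opposite sign, at 0.19. The signal of miR-21a-5p lay below that of miR-142a-3p, with differences of -2.59, -2.89, -2.58 and -2.70 in EAM and -1.91, -3.90 and -2.92 in LAD. That change was 0.22 (exact permutation p = 0.629, adjusted 0.629), and the groups overlapped.

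**Figure D3:**
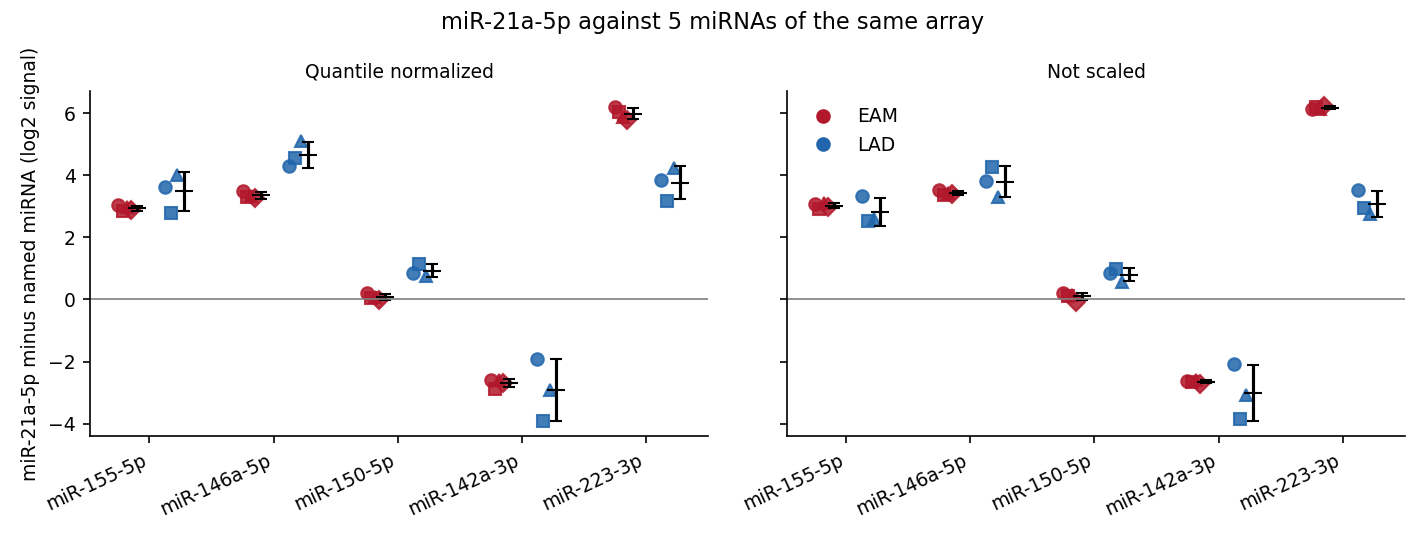
Signal of miR-21a-5p minus that of 5 other miRNAs on the same array, in log2 units, from quantile-normalized values (left panel) and unscaled values (right panel); points are arrays, EAM beside and to the left of LAD for each miRNA. The groups do not overlap for miR-150-5p and miR-223-3p in either panel, nor for miR-146a-5p in the left panel, and they overlap for miR-155-5p and miR-142a-3p in both.

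Other miRNAs that activated T cells induce were followed as a list of 15 names, of which 8 were tested and 6 were detected on no array. Of the 8, 3 were higher in EAM, against 36.2% of all tested miRNAs, 0 were higher in LAD, against 23.6%, and 5 did not pass. The median difference of the 8 was 0.58, against 0.31 over all tested miRNAs. Scaled to the 75th percentile of the detected probes, 2 of them were higher in EAM and 4 in LAD. miR-155-5p had 9.62 ± 0.03 in EAM (SD, n = 4) and 8.51 ± 0.80 in LAD (SD, n = 3), a difference of 1.12 (adjusted p = 0.0264, limma). miR-146a-5p had 9.21 ± 0.07 in EAM and 7.33 ± 1.25 in LAD, a difference of 1.88 (adjusted p = 0.0204, limma). miR-7a-5p had 8.0 ± 0.08 in EAM and 6.83 ± 0.85 in LAD, a difference of 1.17 (adjusted p = 0.0264, limma). miR-212-3p, made from the same transcript as miR-132, differed by 0.77 and did not pass (adjusted p = 0.0702, limma). miR-132-3p (-0.26, adjusted p = 0.555, limma) and miR-146b-5p (-0.39, adjusted p = 0.214, limma) had the opposite sign and did not pass either. When any 1 EAM array or LAD array 3 was left out, 0 or 1 of the list passed, with 3 or 4 at an unadjusted p under 0.05, and without LAD array 2 it was 5. Without 1 array the adjusted p ran up to 0.0863 for miR-155-5p, 0.0701 for miR-146a-5p and 0.0694 for miR-7a-5p (limma).

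Of 12 miRNAs taken here as high in resting T cells, all were tested, 6 were higher in EAM, 2 were higher in LAD and 4 did not pass, with a median difference of 0.67. Whether each of the 12, the miR-181 names included, is high in resting cells was not tested. The shares called over all tested miRNAs were 36.2% toward EAM and 23.6% toward LAD. The 6 were miR-150-5p, miR-30b-5p, miR-101a-3p and the 3p arms of miR-29a, miR-29b and miR-29c. miR-150-5p had 12.47 ± 0.05 in EAM (SD, n = 4) and 11.06 ± 1.20 in LAD (SD, n = 3), a difference of 1.41 (adjusted p = 0.0380, limma). miR-101a-3p differed by 1.99 (adjusted p = 0.0118), miR-29c-3p, whose family targets interferon gamma, by 1.81 (adjusted p = 0.0215), and miR-30b-5p by 0.75 (adjusted p = 0.0207). Those higher in LAD were miR-181a-5p, which tunes T cell receptor signalling, at -3.18 (adjusted p = 0.0118), and miR-181b-5p at -2.60 (adjusted p = 0.0398). When any 1 EAM array or LAD array 3 was left out, 2 of the 12 passed. The call on miR-150-5p ended when any 1 EAM array or LAD array 3 was left out (adjusted p = 0.0725 to 0.0894, limma), while those on miR-101a-3p and miR-181a-5p held without each array. The call on miR-181a-5p ended without scaling (-0.95, adjusted p = 0.328). The difference of miR-21a-5p was 0.57 on the same scale.

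Markers of other cells that a lymph node preparation could hold were mostly undetected or at low signal, other than miR-223-3p in LAD. By the quantile values 2 sets, the myeloid and the epithelial, held calls between the groups. All 4 leukocyte miRNAs were detected on all 7 arrays and together took 19.7% to 22.3% of the total gene signal in EAM and 12.9% to 16.7% in LAD. Of these, miR-142a-3p, with 15.25 ± 0.10 in EAM (SD, n = 4) and 14.89 ± 0.05 in LAD (SD, n = 3), was higher in EAM (adjusted p = 0.0341, limma). That call ended when any 1 array other than LAD array 2 was left out (adjusted p = 0.0646 to 0.0991). No miRNA tells CD4+ T cells from other lymphocytes by itself, so the selected cell type was not checked beyond that.

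Of the 3 myeloid miRNAs, only miR-223-3p was detected, with 6.59 ± 0.16 in EAM (SD, n = 4) and 8.23 ± 0.83 in LAD (SD, n = 3). On the LAD arrays it read 9.19, 7.78 and 7.71, near the signal of miR-155-5p at 9.43, 8.17 and 7.93. The probes of these names differ in affinity, so this sets signal and not abundance side by side. miR-223-3p was higher in LAD by the quantile values (difference -1.64, adjusted p = 0.0127, limma), and this difference was -0.015 (adjusted p = 0.965) without scaling. The myeloid list took 0.0262% to 0.0283% of the signal in EAM and 0.0887% to 0.226% in LAD. Of 5 epithelial miRNAs, 4 were higher in EAM, where 36.2% of all tested miRNAs were, and the list took 0.0275% to 0.0347% in EAM and 0% to 0.0122% in LAD. All 5 met the filter only through EAM, with each detected on 0 or 1 LAD arrays, so the filter favoured this direction. Their mean quantile log2 signal in LAD was 4.44 to 4.77, and the part of overall brightness in these calls was not tested. For red cells, 1 of 3 was detected, miR-451a, with 0.0235% to 0.0452% in EAM and 0.0262% to 0.103% in LAD. For endothelium and stroma, 5 of 6 were detected on no array, and the list took 0% to 0.00485% in EAM and 0% to 0.0158% in LAD, while all 4 heart muscle miRNAs were detected on no array. Myeloid and epithelial cells also make miR-21, and the part of these cells in the miR-21a values was not tested. In such bulk samples, fewer cells of a type and less RNA per cell cannot be told apart.

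By shape over the 7 arrays, the profile of miR-21a-5p was closest to that of miR-342-3p, a miRNA of mature lymphocytes. The measure was the root-mean-square difference of the quantile log2 values after each profile was centred on its own mean, over the other 250 names detected on all 7 arrays. It was 0.147 for miR-342-3p, 0.308 for miR-26b-5p, 0.386 for miR-29b-3p, 0.431 for miR-155-5p and 0.433 for miR-150-5p, with a median of 0.767 and a maximum of 2.37 over all 250. The profiles share the same 7 arrays and so any error of an array. miR-342-3p had 10.95, 10.98, 10.88 and 11.01 in EAM and 11.16, 9.53 and 10.43 in LAD. As with miR-21a-5p, LAD array 1 was above and LAD arrays 2 and 3 were below all EAM arrays, and the difference of 0.58 did not pass (adjusted p = 0.158, limma). miR-26b-5p did not pass either (0.58, adjusted p = 0.0559), while miR-29b-3p did (1.31, adjusted p = 0.0354) except when any 1 array other than LAD array 1 was left out (adjusted p = 0.0603 to 0.112).

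**Figure D4:**
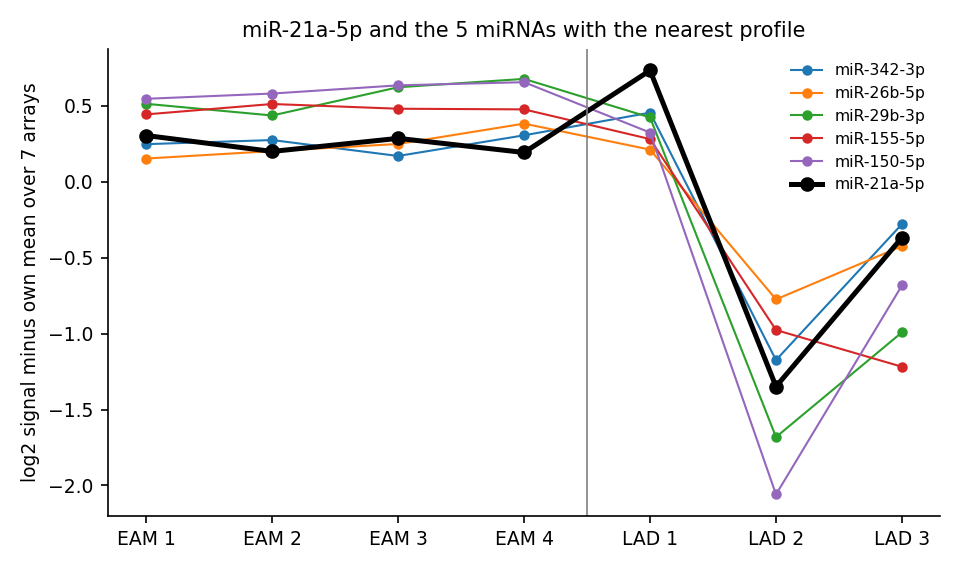
Quantile-normalized log2 signal of miR-21a-5p and of the 5 miRNAs with the most similar profile, each minus its own mean over the 7 arrays (vertical axis), by array (horizontal axis, EAM left, LAD right). The curves lie close together on the EAM arrays and all have low values on LAD array 2, and miR-342-3p follows miR-21a-5p most closely, at a root-mean-square difference of 0.147.

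miR-21a-3p was at the edge of detection. It was called detected on EAM arrays 1, 3 and 4 and on no LAD array, so it did not meet the filter for testing. Its total gene signal was 5.06, 4.39 and 6.38 units on those 3 arrays. Its quantile log2 signal was 4.64, 4.52, 4.64 and 4.92 in EAM (4.68 ± 0.17, SD, n = 4) and 4.27, 4.10 and 4.28 in LAD (4.22 ± 0.10, SD, n = 3), near the level of undetected names. All EAM values lay above all LAD values. With each LAD array set to the higher of its own value and its lowest detected value, the signal was 1.27-fold higher in EAM. This is no firm bound, since EAM array 2 did not detect the arm at 4.52. That value lay above the lowest detected values of the LAD arrays (4.44, 4.22 and 4.35). When all 1881 names were tested, the difference of 0.46 passed (adjusted p = 0.0226, limma). In that run 445 names passed, 239 of them higher in EAM and 206 higher in LAD. Only 553 of the 1881 had a detection call on any array, so most names in that run were undetected throughout. The call on miR-21a-3p ended when EAM array 1, 3 or 4 or LAD array 1 or 3 was left out (adjusted p = 0.0504 to 0.0585, limma). It held without EAM array 2 (0.0428) or LAD array 2 (0.0216). Of 18 alternatives run among all names, 8 lost the call with the sign kept, the left-out arrays included. Scaled to the 75th percentile of the detected probes, the difference among all names had the opposite sign, at -0.98 (adjusted p = 0.00851, limma).

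The 4 probes of miR-21a-3p separated the groups the more clearly the longer they were. The 15-base probe had a median intensity of 72.5, 60.6, 68.1 and 73.2 units in EAM and 46.9, 47.4 and 45.7 units in LAD. The 14-base probe had 66.6, 58.6, 58.6 and 67.7 units in EAM and 49.9, 47.8 and 47.7 units in LAD. On both, all EAM arrays were brighter than all LAD arrays. The 12-base probe, with 50.5, 47.4, 45.8 and 46.4 units in EAM and 45.0, 47.1 and 44.3 units in LAD, overlapped between the groups.

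In quantile log2 values the difference between the groups was 0.09 for the 12-base probe, 0.35 for the 13-base probe, 0.57 for the 14-base probe and 0.91 for the 15-base probe. The exact permutation p was 0.286 for the 12-base probe and 0.0571, the smallest possible, for the others. Of the 7 spots of the 15-base probe, 3, 0, 5 and 7 were well above background in EAM, and none was in any LAD array. For the 14-base probe these counts were 0, 0, 1 and 6 in EAM and 0 in LAD. EAM array 2, where the arm was not called detected, still read above every LAD array on both of these probes. The EAM arrays were also the brighter ones in general, and the part of overall brightness in the calls on miR-21a-3p was not tested.

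**Figure D5:**
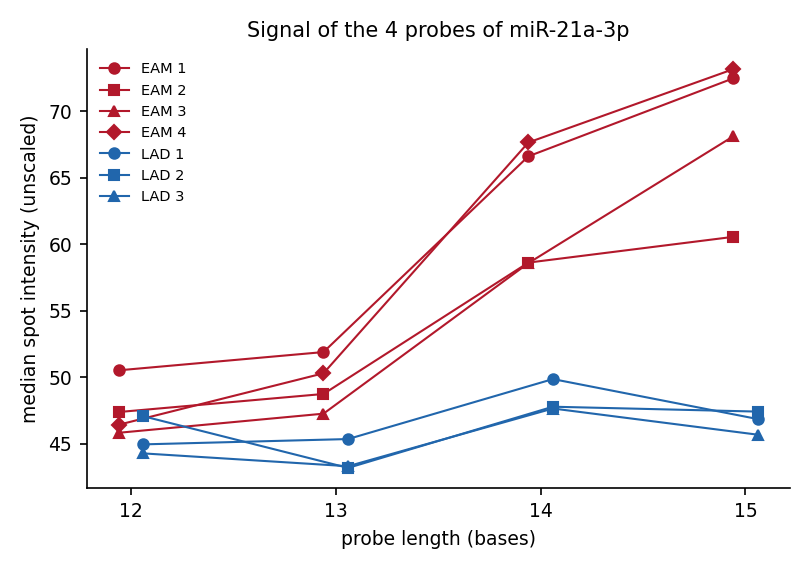
Median spot intensity (arbitrary units, vertical axis) of the 4 miR-21a-3p probes by probe length in bases (horizontal axis), 1 line for each array, EAM listed before LAD. At 12 bases the groups overlap between 44.3 and 50.5 units, and at 15 bases the EAM arrays reach 60.6 to 73.2 units and the LAD arrays 45.7 to 47.4 units.

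The arms were then set against each other on each array. The level of this difference holds the unequal affinity of the probes, so only its change between arrays is read. The signal of miR-21a-5p exceeded that of miR-21a-3p by 7.98, 7.99, 7.96 and 7.59 log2 units in EAM (7.88 ± 0.19, SD, n = 4). It did so by 8.77, 6.87 and 7.67 in LAD (7.77 ± 0.96, SD, n = 3), where the 3p values are those of an undetected name. The change of 0.11 was within the spread (two-sided exact permutation p = 0.857), and it was -0.34 without LAD array 2. Without scaling, the 5p arm exceeded the 3p arm by 8.11, 8.42, 8.33 and 8.27 in EAM (8.28 ± 0.13, SD, n = 4) and by 6.99, 6.31 and 5.21 in LAD (6.17 ± 0.90, SD, n = 3). On that scale all EAM arrays lay above all LAD arrays, a change of 2.11 (exact permutation p = 0.0571, the smallest possible), and median centring and both 75th percentile scalings gave the same value. The 3p values of the LAD arrays are those of an undetected name on either scale, so they set no arm ratio there. In the total gene signal, the ratio of the arms was 1004, 1070 and 928 on EAM arrays 1, 3 and 4.

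On the LAD arrays, where miR-21a-3p was not detected, miR-21a-5p read 722, 519 and 159 times the lowest signal that was detected. At the median EAM ratio of 1003.7, miR-21a-3p would have read 0.860, 0.625 and 0.207 units there, below those lowest detected signals of 1.19, 1.21 and 1.31 units. A higher ratio in LAD, or one lower by less than the gap between these values, was therefore not detectable. The lowest detected signal is no firm limit for this arm, since EAM array 2 did not detect it although the same ratio would have given 5.20 units, against a lowest detected signal of 1.67 units.

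Among the 723 hairpins with both arms named on the array, 17 had both arms detected on all 7 arrays, and miR-21a was not one of them. Over those 17, the change of the arm difference (5p less 3p, EAM minus LAD) had a median of 1.23 and a range of -0.21 to 2.43, and it was above 0 in 15. The value for miR-21a, 0.11, rests on an undetected arm in LAD and is not placed among them. In 115 hairpins, miR-21a included, 1 arm was detected on all 7 arrays and its partner on no LAD array. The partner was detected on no array at all in 98 and on at least 1 EAM array in 17, as for miR-21a. Among those 17, the mean quantile log2 signal of the detected arm was 12.56 in EAM and 11.98 in LAD for miR-21a-5p and 13.41 in EAM and 11.95 in LAD for miR-29a-3p, the brightest in EAM, named after its values were seen.

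No signal of the relatives of miR-21a was detected. miR-21b, miR-21c and miR-590-5p were detected on 0 of the 7 arrays. Of their 630 spots 1 was well above background, and their quantile log2 signal stayed between 4.03 and 4.33. miR-21c has the miR-21a-5p seed and differs from that arm in its 3′ part, within the bases that the probes read. It was thus not detected, while miR-21a-5p read 10.96 or more on every array. On the EAM arrays miR-21a-3p lay 0.54 log2 units above the mean of these 3 undetected names, and on the LAD arrays 0.05.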

How the data were processed

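Per the labels' protocols, a miRVANA kit was used for the RNA, of which 100 ng a sample was labelled with Cy3. Per the file headers, the authors' scanner files come from Agilent Feature Extraction 10.7.3.1, with intensity per spot, unscaled between arrays, total gene signal (an intensity per miRNA) and yes-or-no flags of other kinds, for detection, saturation and outlying spots. The deposited table of the authors holds log2 values, and the submitters' processing notes name RMA, with no version or role. Its column medians were 5.55 to 5.56. Its values nearly matched quantile-normalized log2 signal that had no background correction (r = 0.9988 across values, 97.9% within 0.1). Its scale and centring were inferred only from that match. It needed no direction, since each array has 1 colour.

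Of the 58594 spots on an array, 56430 belonged to the 4415 miRNA probes and the rest were controls. Mean spot signal was corrected with normexp (foreground only, no offset), quantile normalized, log2 transformed, taken as the median over spots without those marked as outliers, and summarized over probes by median polish. A probe counts as detected where over 50% of its spots are well above background. Names that all EAM arrays or all LAD arrays detected were tested with limma 3.58.1 (lmFit and eBayes, Benjamini-Hochberg adjusted p under 0.05) in R 4.3.3, with files read by data.table (version 1.17.8). Single values were tested by two-sided exact permutation over 35 splits. The limma step was tested on simulated data, drawn with the same spread in both groups. That run does not cover a spread that is larger in LAD, as for miR-21a-5p. The 75th percentile of spot intensity was 50.4 to 61.5 per array. Precision is limited by how many arrays there are.

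The members, the lists and the tests were chosen with earlier results of these data known. Named miRNAs were both arms, the seed relatives, the 5 nearest profiles, up to 4 members of the activation-induced and resting lists with the smallest p, and miR-155-5p, miR-146a-5p, miR-150-5p, miR-142a-3p and miR-223-3p. Others named were chosen after their values were seen. Alternatives were other background corrections, scalings, summaries, filters and variance models, the authors' table, single probes, the replicate block and leaving out each array. The seed relative miR-590-5p had no entry in the sequence table and is named only. All columns of the deposited values were mapped to a sample.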

Additional observations from a re-analysis of the deposited data

Results flagged for a closer look

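Among 36 sets of 4 EAM values that were checked for a value far from the others, 2 stood out, and chance alone gives about 1 in 20. The difference between the arms of miR-21a was 7.59 log2 units on EAM array 4 and 7.96 to 7.99 on the other EAM arrays. The gap was 0.917 of the whole range, above Dixon's 95% critical value for 4 samples. EAM array 4 also had the highest quantile log2 signal of miR-21a-3p, at 4.92. For miR-142a-3p, the leukocyte miRNA, EAM array 2 stood at 15.40 and the other EAM arrays at 15.18 to 15.21, a gap of 0.866 of the range. The 3 LAD arrays are too few for this check.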

How the results depend on the processing

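The difference of miR-21a-5p (0.57) was 2.52 with the 75th percentile of all probes, 1.13 with that of the detected probes, 2.60 with median centring, 3.08 without scaling and -0.33 with array weights, a fit that stopped before its convergence tolerance. Without 1 array it was 0.063 to 1.10. In the other alternatives it was above 0 and did not pass. The cause of these changes was not tested. That of miR-21a-3p (0.46) was 0.21 without background correction, 0.15 with local background, -0.98 with the 75th percentile of the detected probes, 0.97 without scaling, 3.70 in total gene signal, 0.21 in the authors' table, 0.092 for the 12-base and 0.91 for the 15-base probe, and 0.38 to 0.52 without 1 array. In total gene signal, undetected names stood at a fill value of 0.1 units. For miR-21a-3p that held on EAM array 2 and every LAD array, so 3.70, and the arm change of -3.02 below, rest on that fill value. Within the filtered names, miR-21a-3p could not be fitted among names detected on all arrays or under the variance models, since it was not tested. Among all names its difference was -0.98 with the 75th percentile of the detected probes, and 8 of 18 alternatives lost the call with the sign kept. The arm change (0.11) was -3.02 in total gene signal, -0.082 and -0.43 for the longer 5p probe with the 14- and 15-base 3p probes and -0.26 for the shorter with the 15-base, and -0.34 to 0.61 without 1 array, and it was 2.11 (exact permutation p = 0.0571) without scaling, with median centring and with both 75th percentiles, and 0.69 in the authors' table. The rank difference (-3.5) was -6.5 to 0.5 without 1 array.

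Of the calls (253), 166 were left with total gene signal, 445 with all names tested, 135 with names detected on all arrays, and 59 (without EAM array 4) to 379 (without LAD array 2) without 1 array. The unequal-variance test called 0 (120 at an unadjusted p under 0.05). The activation-induced calls (3) were 5 with the 75th percentile of all probes, 6 with that of the detected probes (2 higher in EAM, 4 in LAD), 6 with median centring, 6 without scaling, 1 with total gene signal, 0 with unequal variance and 0 to 5 without 1 array. The resting calls (8) were 3 with total gene signal, 4 with all names, 3 with array weights, 0 with unequal variance and 2 to 10 without 1 array. By Pearson correlation 3 of the 5 nearest profiles were shared. Single signs turned for miR-212-3p (-0.17, 75th percentile of the detected probes), miR-342-3p (-0.096, array weights), miR-21a-5p against miR-142a-3p (-0.39, authors' table; -0.28 to 0.72 without 1 array, lowest without LAD array 2) and against miR-155-5p (0.19 under the 4 scalings other than quantile).

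Replicate numbers, which match the slide rows, did not pair the samples: same-numbered deviations correlated at 0.20, -0.16 and -0.19, and only number 1 correlated best with its own. With the replicate block, limma gave 0.59 for miR-21a-5p (adjusted p = 0.244) and called 0 of 423, none of either list included, with 180 at an unadjusted p under 0.05. That of miR-21a-3p over the shared numbers was 0.38. The arm change was then 0.21 and the rank difference -3.67. The share of signal, the differences against named miRNAs, the test of miR-21a-3p among all names, and the alternatives for the lists and named miRNAs were added after seeing the data. Signal over background limits miR-21a-3p: no LAD array detected it.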

Other observations

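The arms of miR-21a have different positions in the array design than their order in RefSeq would give. The file headers place the miR-21a-5p probes at chr11:86397588-86397607 and the miR-21a-3p probes at chr11:86397631-86397645 of mm9, with the 5p arm at the lower coordinates. In RefSeq (GRCm38.p6), where the gene lies on the minus strand, the 5p arm has the higher coordinates. The probe sequences match the mature strands by name, so no value above depends on these positions.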
